A study of Mus musculus with 21 samples.

Results

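Collagen messenger RNA was described in the left ventricle of 21 male wild-type C57BL/6 mice, 3 in each of 7 groups. The collagen family comprised every gene whose symbol reads Col, a number, a and a number, and held 44 of the 22136 genes in the deposited count table. Of these 44 genes, 11 encode fibrillar chains, 6 basement membrane (type IV) chains, 3 network-forming chains, 9 fibril-associated chains (FACIT), 6 beaded filament (type VI) chains and 9 other chains. A total of 29 members passed the expression filter of at least 1 CPM (counts relative to library size) in at least 3 libraries and were tested, and 15 did not pass.

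All mice were 8 weeks old at surgery, received isoflurane anaesthesia, a thoracotomy and buprenorphine, and were killed at week 8 after surgery. Sham mice had no ligature. In the AB group the ascending aorta was narrowed by banding, which loads the left ventricle with pressure, and no therapy followed. AB_Implant mice were banded and carried from week 1 a biodegradable triboelectric nanogenerator, a device that makes current from motion, which was not activated. In the 4 remaining groups the banded mice had low-level vagus nerve stimulation from such a device through cuffs on the left cervical vagus nerve (4 µA peak to peak, 2 Hz). Daily sessions lasted 20 min from week 1 for 7 weeks (VNS20_1w), 20 min from week 2 for 6 weeks (VNS20_2w), 20 min from week 4 for 4 weeks (VNS20_4w), or 10 min from week 1 for 7 weeks (VNS10_1w). The labels name the libraries biological replicates, and whole ventricular tissue was sequenced.

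Collagens are secreted proteins wound from α chains, and each class builds a different part of the matrix. Types I, III and V form the banded fibrils that carry tension and in the heart come mostly from fibroblasts. Type IV is the scaffold of the basement membranes around cardiomyocytes and capillaries, type VI links cells to fibrils, and FACIT collagens sit on fibril surfaces. Pressure overload is a textbook setting for growth of the fibrillar matrix, called fibrosis.

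The promoter windows of 5 members are shown first, because the results turn on the neighbouring type IV pair and on the 3 genes that passed the test. Each window runs from 250 bases before to 50 bases after the RefSeq start and is written 5′ to 3′ on the strand of its gene (RefSeq, GRCm38.p6). Capitals mark CCAAT or its complement ATTGG, bound by the factor NF-Y, and GGGCGG or its complement CCGCCC, bound by Sp1. Col4a1 lies at chr8:11312777-11313076 on the minus strand and Col4a2 at chr8:11312555-11312854 on the plus strand. Col15a1 lies at chr4:47207762-47208061 (plus), Col16a1 at chr4:130047590-130047889 (plus) and Col6a1 at chr10:76725995-76726294 (minus).
Col4a1: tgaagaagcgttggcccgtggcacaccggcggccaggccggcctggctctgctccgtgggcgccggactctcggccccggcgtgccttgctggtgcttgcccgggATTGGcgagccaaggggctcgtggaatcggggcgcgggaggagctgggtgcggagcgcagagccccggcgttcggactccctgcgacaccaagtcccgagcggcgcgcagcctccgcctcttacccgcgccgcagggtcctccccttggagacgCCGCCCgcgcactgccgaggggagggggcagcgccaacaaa
Col4a2: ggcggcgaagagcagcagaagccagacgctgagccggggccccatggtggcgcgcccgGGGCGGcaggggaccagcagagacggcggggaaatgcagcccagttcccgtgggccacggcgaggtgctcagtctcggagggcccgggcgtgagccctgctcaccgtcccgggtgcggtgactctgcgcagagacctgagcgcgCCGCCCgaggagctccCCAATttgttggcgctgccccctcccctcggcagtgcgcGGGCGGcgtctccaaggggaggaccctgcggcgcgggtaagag
Col15a1: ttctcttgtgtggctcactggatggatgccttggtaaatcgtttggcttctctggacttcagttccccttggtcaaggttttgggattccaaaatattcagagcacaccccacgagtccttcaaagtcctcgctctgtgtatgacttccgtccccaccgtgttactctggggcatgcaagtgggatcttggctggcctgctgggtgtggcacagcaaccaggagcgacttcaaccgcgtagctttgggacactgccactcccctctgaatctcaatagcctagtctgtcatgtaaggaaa
Col16a1: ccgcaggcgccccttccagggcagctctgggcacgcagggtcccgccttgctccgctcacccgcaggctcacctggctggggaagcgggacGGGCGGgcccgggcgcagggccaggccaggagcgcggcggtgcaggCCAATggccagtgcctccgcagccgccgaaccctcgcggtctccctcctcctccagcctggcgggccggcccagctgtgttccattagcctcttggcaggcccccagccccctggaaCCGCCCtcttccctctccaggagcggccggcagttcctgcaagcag
Col6a1: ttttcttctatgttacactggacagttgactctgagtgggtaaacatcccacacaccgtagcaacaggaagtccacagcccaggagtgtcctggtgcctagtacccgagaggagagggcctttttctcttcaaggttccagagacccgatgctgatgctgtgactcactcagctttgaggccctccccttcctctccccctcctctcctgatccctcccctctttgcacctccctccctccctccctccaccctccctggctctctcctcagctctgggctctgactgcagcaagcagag
Col4a1 and Col4a2 lie head to head, and their windows share the last 78 bases of each. The shared stretch holds 1 GC box, which is therefore printed in both windows, as CCGCCC in that of Col4a1 and as the last GGGCGG in that of Col4a2. The Col16a1 window held 1 CCAAT and 2 GGGCGG matches, and no match to either motif was found in the letters of the Col15a1 and Col6a1 windows. Over both strands GGGCGG occurred in 23 of the 38 collagen windows (60.5%, covering 35 genes) and in 35.7% of all 32851 windows. CCAAT occurred in 13 of 38 (34.2%) against 37.4% of all windows, and TATAAA, the TATA box, in 5 of 38 (13.2%) against 13.6%. These matches are letters in a window and were not measured as binding.

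Library totals lay between 11577509 and 19414865 counts, and mitochondrial genes took 34.43% to 55.32% of them. The libraries differed in how far counts depended on gene length, with slopes from -0.30 to 0.45 log2 CPM per log2 base. The slope was fitted to each gene's deviation from its mean over the 21 libraries, on the length of its merged exons. A slope near 0 therefore means a library like the average one, not one without a dependence on length. The slopes of VNS20_1w replicate 2, VNS20_2w replicate 1 and VNS10_1w replicate 2 were the steepest, at 0.42 to 0.45. All VNS20_4w libraries had slopes of -0.30 to -0.25, and all AB_Implant libraries 0.04 to 0.25. Their mitochondrial shares did not overlap either, at 49.56% to 52.69% and 34.43% to 44.43%. Between VNS20_4w and AB_Implant, group and these measures cannot be told apart. In collagen level AB_Implant replicate 2 lay farthest from the rest of its group. It was the lowest of its group in 24 of the 29 tested members, against 34.5% of all tested genes, and its median ratio to the mean of the other 2 libraries was 0.459. In the other libraries this ratio ran from 0.758 (VNS20_1w replicate 3) to 1.42 (AB_Implant replicate 1). VNS20_4w replicate 1 was the highest of its group in 21 members (36.6% of all tested genes), and Sham replicate 2 (34.2%), VNS20_1w replicate 1 (19.3%) and VNS10_1w replicate 2 (44.4%) in 19 each. The length slopes of AB_Implant replicates 1, 2 and 3 were 0.05, 0.04 and 0.25. Mitochondrial genes took 37.61%, 44.43% and 34.43% of their counts, so replicate 2 was also the highest of its group in this share. Calls, member medians, class means and list medians that involve AB_Implant are also given without AB_Implant replicate 2. That library was picked for its low collagen, so leaving it out tends to widen these differences by selection, and the medians are given in this direction only. For Col1a2 in AB_Implant against Sham the log2 fold change was 1.19 without replicate 2 and 0.53 without replicate 1. For Col1a1 in VNS10_1w against AB_Implant it was -2.42 without AB_Implant replicate 2 and -1.52 without AB_Implant replicate 1.

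Type IV and the fibrillar chains dominated the collagen message of these ventricles. Levels are given as scaled CPM, the count relative to the library size after edgeR's TMM scaling. Between genes they were compared per 1000 bases of the main coding transcript, averaged over the 21 libraries. On this scale Col4a1 was highest at 31.1, followed by Col3a1 at 25.7, Col4a2 at 24.9, Col1a2 at 17.3 and Col1a1 at 13.1. Col6a2 (11), Col6a1 (9.95), Col15a1 (6.77) and Col5a2 (4.35) came next, and Col4a5 (2.43) and Col5a1 (2.19) closed the group above 2. The other 18 tested members lay between 0.078 (Col4a3) and 1.6 (Col16a1).

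The 15 members that did not pass the filter are chains known from cartilage, skin and other epithelia, or of narrow expression. They were Col2a1, Col11a1 and Col24a1 of the fibrillar class, Col4a6, Col8a2 and Col10a1, the FACIT members Col9a1, Col9a3 and Col19a1, Col6a4 and Col6a5, and Col17a1, Col23a1, Col25a1 and Col26a1. Col10a1 and Col2a1, defining chains of cartilage, had 0 counts in 17 and 16 of the 21 libraries and at most 7 and 8 counts. A floor of 3 counts corresponded to 0.114 to 0.302 scaled CPM (counting error only), and levels of these genes below it were not detectable at this depth. Col8a2 and Col26a1 reached 1.13 and 0.998 scaled CPM in AB_Implant replicate 1 and at most 1.12 and 0.301 elsewhere.

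Summed over the 44 members, collagen was lowest in VNS10_1w and most spread in AB_Implant. The sums were 721, 859 and 1223 scaled CPM in Sham, 714, 997 and 1028 in AB, and 657, 1416.5 and 1866.5 in AB_Implant. They were 650.1, 686 and 844 in VNS20_1w, 898, 927 and 1380.5 in VNS20_2w, and 796, 1139 and 1501 in VNS20_4w. The VNS10_1w libraries had 430.3, 453 and 589.9, all below the lowest library of every other group. In whole tissue, fewer collagen-producing cells and less collagen RNA per cell cannot be told apart.

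**Figure D1:**
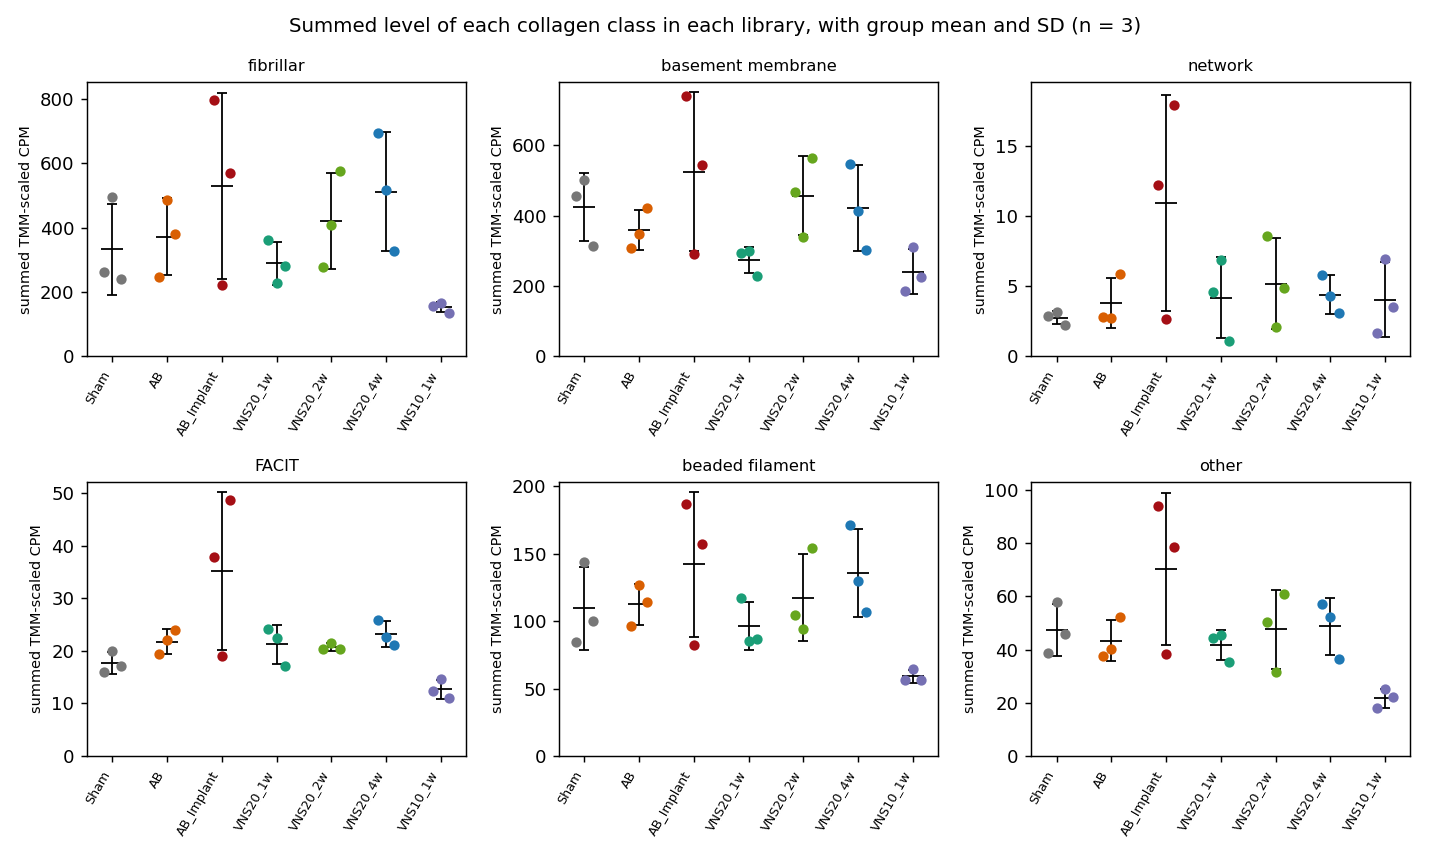
Summed scaled CPM of the members of each collagen class (vertical axis) in each library of the 7 groups (horizontal axis). Points are libraries and black bars are the group mean and SD (n = 3). In the fibrillar, FACIT, beaded filament and other panels all 3 VNS10_1w points lie below every other point, and in the basement membrane and network panels they overlap points of other groups.

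By class, the fibrillar sum was 153 ± 15.8 scaled CPM in VNS10_1w (SD, n = 3) and between 289 ± 67.4 (VNS20_1w) and 529 ± 289 (AB_Implant) in the other groups. The type VI sum was 59.1 ± 5.07 in VNS10_1w and 96.4 ± 17.8 to 142 ± 53.8 elsewhere. Type IV was less separated, at 241 ± 64.2 in VNS10_1w against 274 ± 38.3 in VNS20_1w and 525 ± 225 in AB_Implant. Over AB_Implant replicates 1 and 3 alone the fibrillar mean was 683, the type VI mean 172 and the type IV mean 642. The fibrillar share of all collagen was 31.5% ± 4.18 in VNS10_1w and 44.2% ± 2.83 in VNS20_4w, the lowest and the highest group means, and no other group mean was under 34.8%. The basement membrane share ran the other way, at 48.5% ± 4.85 in VNS10_1w and 36.9% ± 0.944 in VNS20_4w. Both shares overlapped between VNS10_1w and Sham. The fibrillar share was 28.3% to 36.2% in VNS10_1w and 30.5% to 40.6% in Sham, and the basement membrane share 43.3% to 52.8% and 41% to 53%.

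Across the 7 groups in a single F test (edgeR quasi-likelihood), 0 of the 29 members passed an adjusted p of 0.05, and 0.537% of all 12100 tested genes did. At an unadjusted p under 0.05 there were 15 members beside 10.6% of all tested genes, 8 members passed with DESeq2 (4.47% of all tested genes) and 19 with limma voom (47.9%). Col16a1 had the smallest adjusted p, 0.0972. Without AB_Implant replicate 2, Col6a1, Col15a1 and Col16a1 passed, beside 0.975% of all tested genes. The group mean was lowest in VNS10_1w for 15 members (10.9% of all tested genes) and highest in AB_Implant for 15 (16.8% of all tested genes). Those highest in AB_Implant include Col9a2 and Col22a1. Both passed the expression filter only through AB_Implant libraries, which partly sets their place there. The 15 members lowest in VNS10_1w were Col1a1, Col1a2, Col3a1, Col5a1, Col5a2, Col4a1, Col4a2, Col6a1, Col6a2, Col6a3, Col12a1, Col14a1, Col16a1, Col15a1 and Col18a1.

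**Figure D2:**
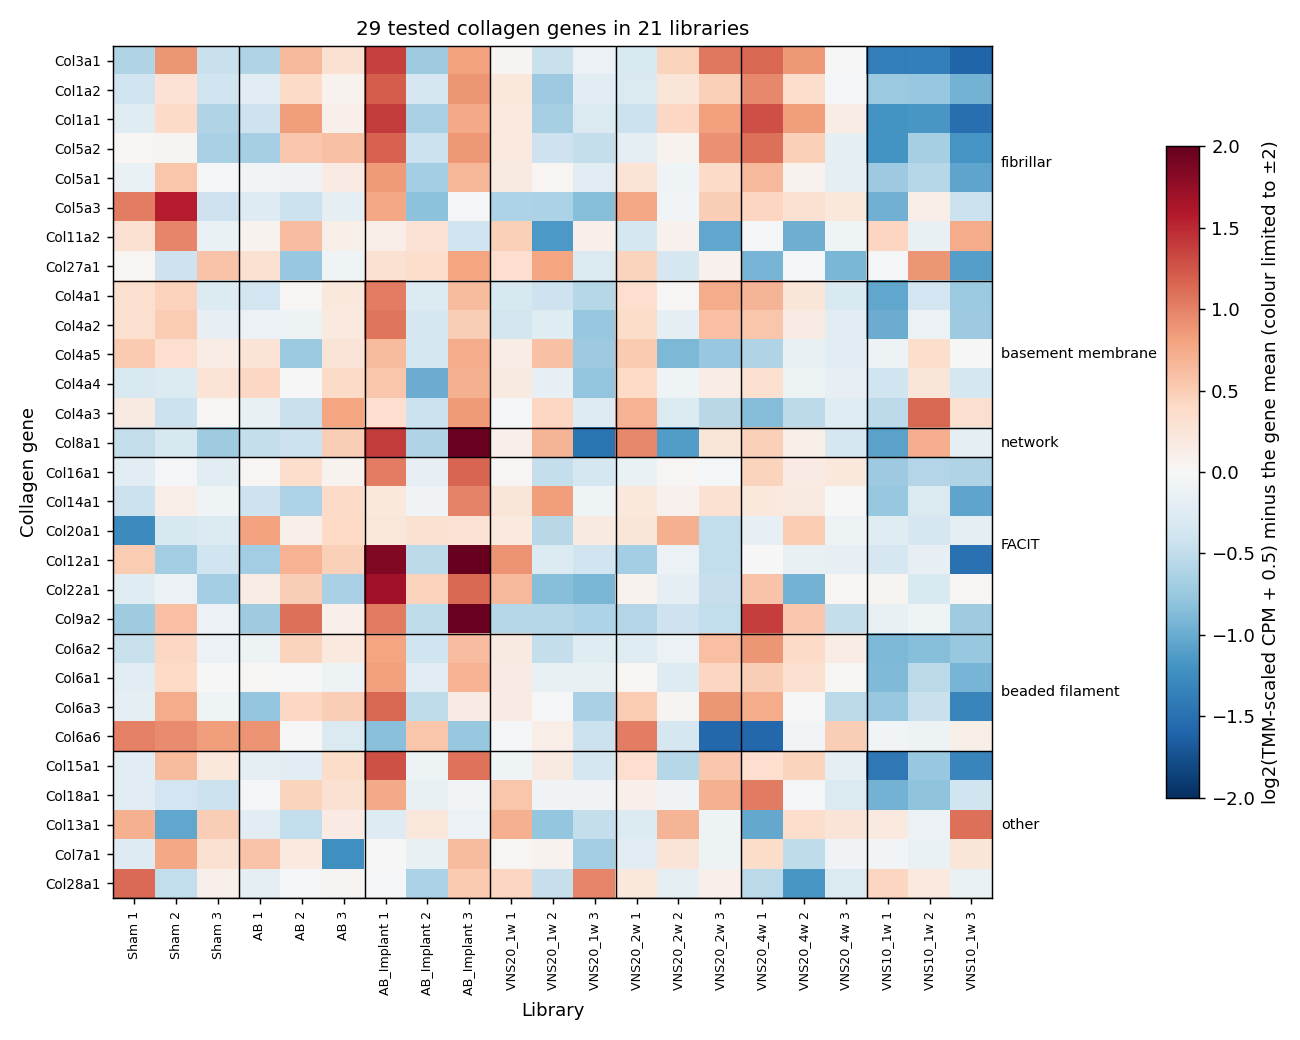
Log2(scaled CPM + 0.5) of the 29 tested members minus the mean of each gene, with libraries in columns and genes in rows ordered by class. Blue fields in the 3 VNS10_1w columns run through most fibrillar, type VI and multiplexin rows, and AB_Implant replicate 2 is bluer than the 2 libraries beside it in 24 of 29 rows.

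Banding alone gave no called collagen. In AB against Sham 0 of 29 members passed in edgeR, as did 0% of all tested genes. There were 2 members at an unadjusted p under 0.05 (4.99% of all tested genes), and DESeq2 and limma voom each called 0 (0.0909% and 0% of all tested genes). The median log2 fold change of the members was -0.03, beside -0.02 over all tested genes, with 14 members higher and 15 lower. Col1a1, which encodes the α1 chain of type I fibrils, had 50.3, 120 and 72 scaled CPM in AB and 56.4, 87.2 and 43.8 in Sham. Col3a1, the chain of type III fibrils, had 80.4, 192 and 150 in AB and 80.2, 226 and 89.2 in Sham. The groups overlapped for both genes.

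The smallest p in AB against Sham belonged to Col20a1, a low-level FACIT chain. It had 3.84, 2.17 and 2.76 scaled CPM in AB and 0.523, 1.5 and 1.55 in Sham, with every AB library above every Sham library. Its log2 fold change was 1.28 (SE 0.44, adjusted p = 0.836). The AB libraries lay wholly above Sham in 3 members (Col16a1, Col18a1 and Col20a1) beside 6.77% of all tested genes, and wholly below in 0 beside 6.99%. Col5a3, a minor chain of type V fibrils, had 5.42, 4.73 and 5.63 in AB and 13.8, 20.4 and 4.81 in Sham, and the Sham libraries differed among themselves by more than the AB libraries.

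With the inactive device the collagen levels were higher than in Sham for most members, in 2 of the 3 libraries. In AB_Implant against Sham 23 members were higher and 6 lower, with a median log2 fold change of 0.46 beside -0.01 over all tested genes. No member passed in edgeR (0 of 29, beside 0.281% of all tested genes), 6 had an unadjusted p under 0.05 (9.64% of all tested genes), and DESeq2 and limma voom each called 1, Col16a1 (1.95% and 4.17% of all tested genes). The member median was 0.79 without AB_Implant replicate 2, with 24 members higher and 5 lower. Col16a1, a FACIT chain on fibril surfaces, had 16.4, 6.96 and 18.2 scaled CPM in AB_Implant and 6.67, 7.61 and 6.66 in Sham. AB_Implant replicate 2 thus lay within the Sham range and the other 2 libraries far above it. The log2 fold change was 0.99 (SE 0.27, adjusted p = 0.132), and without AB_Implant replicate 2 it was the only member that passed, beside 1.28% of all tested genes. Over its 16 alternatives this adjusted p ran from 0.00917 to 0.658.

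Several low-level FACIT and network chains had the largest fold changes of this comparison, none past the threshold. Col12a1, a FACIT chain of stressed connective tissue, had 5.26, 0.605 and 6.5 in AB_Implant and 1.77, 0.479 and 0.701 in Sham (log2 fold change 2.08, SE 0.80, adjusted p = 0.355). Col22a1, a FACIT chain of tissue junctions, had 3.13, 1.06 and 1.99 against 0.458, 0.539 and 0.2, so that these groups did not overlap (2.36, SE 0.84, adjusted p = 0.307). It passed the expression filter only through its AB_Implant libraries, so this separation is partly set by the filter. Col8a1, the network chain of type VIII, had 11.1, 2.42 and 16.8 against 2.68, 3.06 and 2.2 (1.94, SE 0.70, adjusted p = 0.31). All 6 tested FACIT members and all 5 tested type IV members had positive fold changes, with medians of 1.45 and 0.36 (1.83 and 0.65 without AB_Implant replicate 2). The FACIT members Col9a2 and Col22a1 passed the expression filter only through AB_Implant libraries. The FACIT count and median are therefore partly set by the filter.

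Among the abundant fibrillar chains Col1a2, the α2 chain of type I, had 198, 67.7 and 157 scaled CPM in AB_Implant against 64.6, 104 and 64.6 in Sham (0.86, SE 0.35, adjusted p = 0.406). Col1a1 had 178, 42.3 and 113, and Col3a1 had 313, 74.3 and 212. AB_Implant replicate 2 was lower than all 3 Sham libraries in Col1a1 and Col3a1 and within their range in Col1a2. Col4a1 had 394, 159 and 299 in AB_Implant and 241, 264 and 159 in Sham, and the groups overlapped. Members with all AB_Implant libraries above Sham were Col18a1, Col20a1 and Col22a1 (9.45% of all tested genes), and Col6a6, a minor type VI chain, was wholly below (9.32%). Of these, Col22a1 was tested only because it was high in AB_Implant.

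Against AB, which shares the banding but has no device, 25 members were higher in AB_Implant and 4 lower (median log2 fold change 0.44 beside 0.01 over all tested genes). In edgeR 0 of 29 passed, as did 0% of all tested genes, 3 had an unadjusted p under 0.05 (9.08%), and DESeq2 and limma voom called 0 (0.655% and 0.0909%). When AB_Implant replicate 2 was left out, the member median was 0.79, and 0 members passed beside 0.0248% of all tested genes. Col15a1, a multiplexin of the zone next to basement membranes, had the smallest p, with 77.3, 29.3 and 67.5 in AB_Implant and 27.8, 27.4 and 40.9 in AB (0.86, SE 0.35, adjusted p = 0.496). No member had groups that did not overlap, beside 9.11% of tested genes wholly above and 7.99% wholly below.

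**Figure D3:**
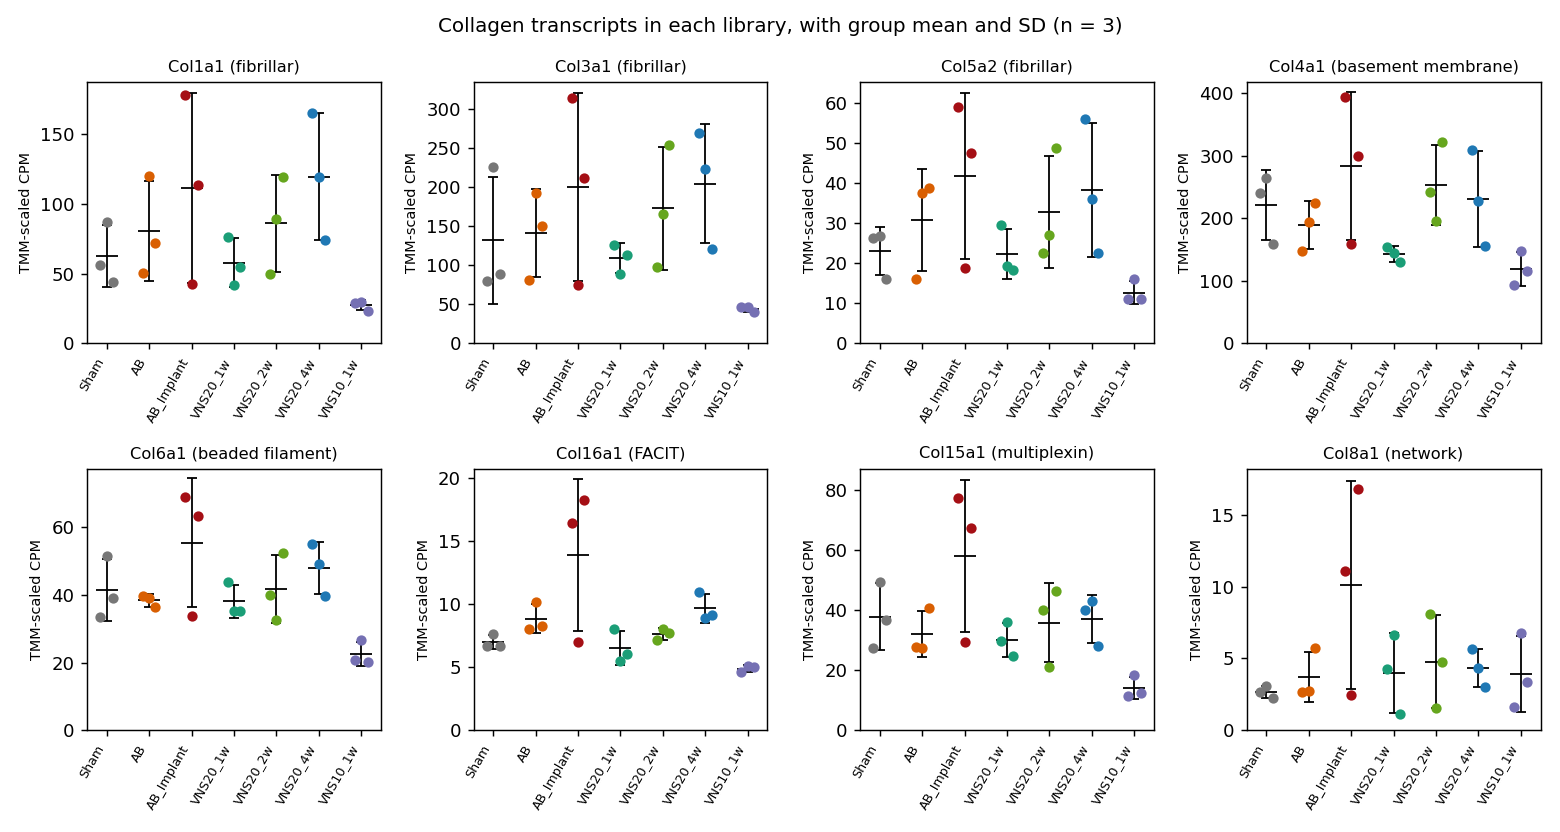
Scaled CPM (vertical axis, from 0) of 8 collagen genes in each library of the 7 groups (horizontal axis), with the group mean and SD in black (n = 3). The 3 VNS10_1w points lie at the bottom of the Col1a1, Col3a1, Col5a2, Col6a1, Col16a1 and Col15a1 panels, while Col8a1 overlaps between VNS10_1w and the other groups.

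Of the 14 comparisons between groups, members passed the edgeR test in VNS10_1w against AB_Implant alone, where Col6a1, Col15a1 and Col16a1 fell and no member rose. These 3 of 29 members passed beside 0.157% of all tested genes (19 of 12100), and 0.0496% (6 genes) passed with a lower level. At an unadjusted p under 0.05 there were 17 members, all lower, beside 6.68% of all tested genes. DESeq2 called 10 members beside 0.752% of all tested genes, and limma voom 19 beside 16.7%. The member median was -1.23 on the log2 scale beside 0.04 over all tested genes, with 24 members lower and 5 higher, and -1.55 without AB_Implant replicate 2.

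Col15a1 had 11.5, 18.4 and 12.4 scaled CPM in VNS10_1w and 77.3, 29.3 and 67.5 in AB_Implant. The log2 fold change was -2.04 (SE 0.36, adjusted p = 0.0257). Col16a1 had 4.56, 5.07 and 5 against 16.4, 6.96 and 18.2 (-1.51, SE 0.27, adjusted p = 0.0264). In both genes the 3 VNS10_1w libraries lay close together below the lowest AB_Implant library. Col6a1, the α1 chain of type VI, had 20.9, 26.7 and 20.1 against 69.1, 33.7 and 63.5 (-1.29, SE 0.25, adjusted p = 0.0406), and here too the groups did not overlap. In GRCm38 coordinates Col15a1 spans chr4:47208161-47313167, Col16a1 chr4:130047840-130099283 and Col6a1 chr10:76708792-76726168.

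The calls depended on single libraries. Without AB_Implant replicate 2, 10 members passed, namely Col1a1, Col1a2, Col3a1, Col5a1, Col5a2, Col4a1, Col6a1, Col6a2, Col15a1 and Col16a1, beside 0.488% of all tested genes in the same fit. Leaving out AB_Implant replicate 1 or 3, or VNS10_1w replicate 1 or 3, left 0, and leaving out VNS10_1w replicate 2 left Col15a1 alone. The fold changes kept their sign in each of these, with Col15a1 between -2.35 and -1.78, Col16a1 between -1.82 and -1.26, and Col6a1 between -1.55 and -1.11.

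The type I and III chains had fold changes from -1.54 to -2.17 without passing the threshold. Col1a1 had 29.1, 29.6 and 23.1 scaled CPM in VNS10_1w, and every one of the other 18 libraries had at least 41.9 (-2.03 against AB_Implant, SE 0.47, adjusted p = 0.127). Col3a1 had 46.6, 46.7 and 39.9, and the other 18 libraries at least 74.3 (-2.17, SE 0.50, adjusted p = 0.128). Col1a2 had 51, 50.1 and 43.9 (-1.54, SE 0.36, adjusted p = 0.127). For all 3 genes the spread within VNS10_1w was small, with SDs of 3.59, 3.87 and 3.86 scaled CPM, and the spread within AB_Implant large, with SDs of 67.8, 120 and 66.6.

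The type V and FACIT chains were separated to different degrees. Col5a2, the α2 chain of type V, which starts fibril assembly, had 11, 16 and 11 in VNS10_1w against 59, 18.9 and 47.5 in AB_Implant (-1.72, SE 0.44, adjusted p = 0.191). Col5a1 had 10.3, 11.6 and 8.18 against 31.8, 10.7 and 27.9 (-1.23, SE 0.32), overlapping through AB_Implant replicate 2. Col5a3, the third type V chain, had 3.13, 7.19 and 4.74 against 11.6, 3.48 and 6.38 and overlapped widely. Col12a1 had 0.761, 0.922 and 0.0649 against 5.26, 0.605 and 6.5 (-2.80, SE 0.84), on counts as low as 1 in VNS10_1w replicate 3 and with the other 2 VNS10_1w libraries above AB_Implant replicate 2. Col14a1, a FACIT chain of mature fibrils, had 4.4, 6.32 and 3.51 against 9.12, 7.41 and 16.1 (-1.20, SE 0.34), with no overlap.

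In the basement membrane class Col4a1 alone had groups that did not overlap. Col4a1 had 93.8, 147 and 115 in VNS10_1w against 394, 159 and 299 (-1.26, SE 0.32, adjusted p = 0.179). Col4a2 had 76.2, 140 and 91.6 against 317, 119 and 214 (-1.08, SE 0.32), with VNS10_1w replicate 2 above AB_Implant replicate 2. Col4a5, an X-linked chain of specialised basement membranes, had 13.9, 19.3 and 15.1 against 23.6, 11.6 and 25.4. Of the other type VI chains Col6a2 had 26.9, 27.8 and 29.9 against 88, 38.2 and 78.5 (-1.27, SE 0.32), and Col6a3 had 7.61, 9.54 and 5 against 29.7, 9.15 and 14.8 (-1.27, SE 0.46). Col18a1, the multiplexin that gives rise to endostatin, had 3.55, 3.97 and 5.45 against 12.7, 6.58 and 7.04 (-1.02, SE 0.36).

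**Figure D4:**
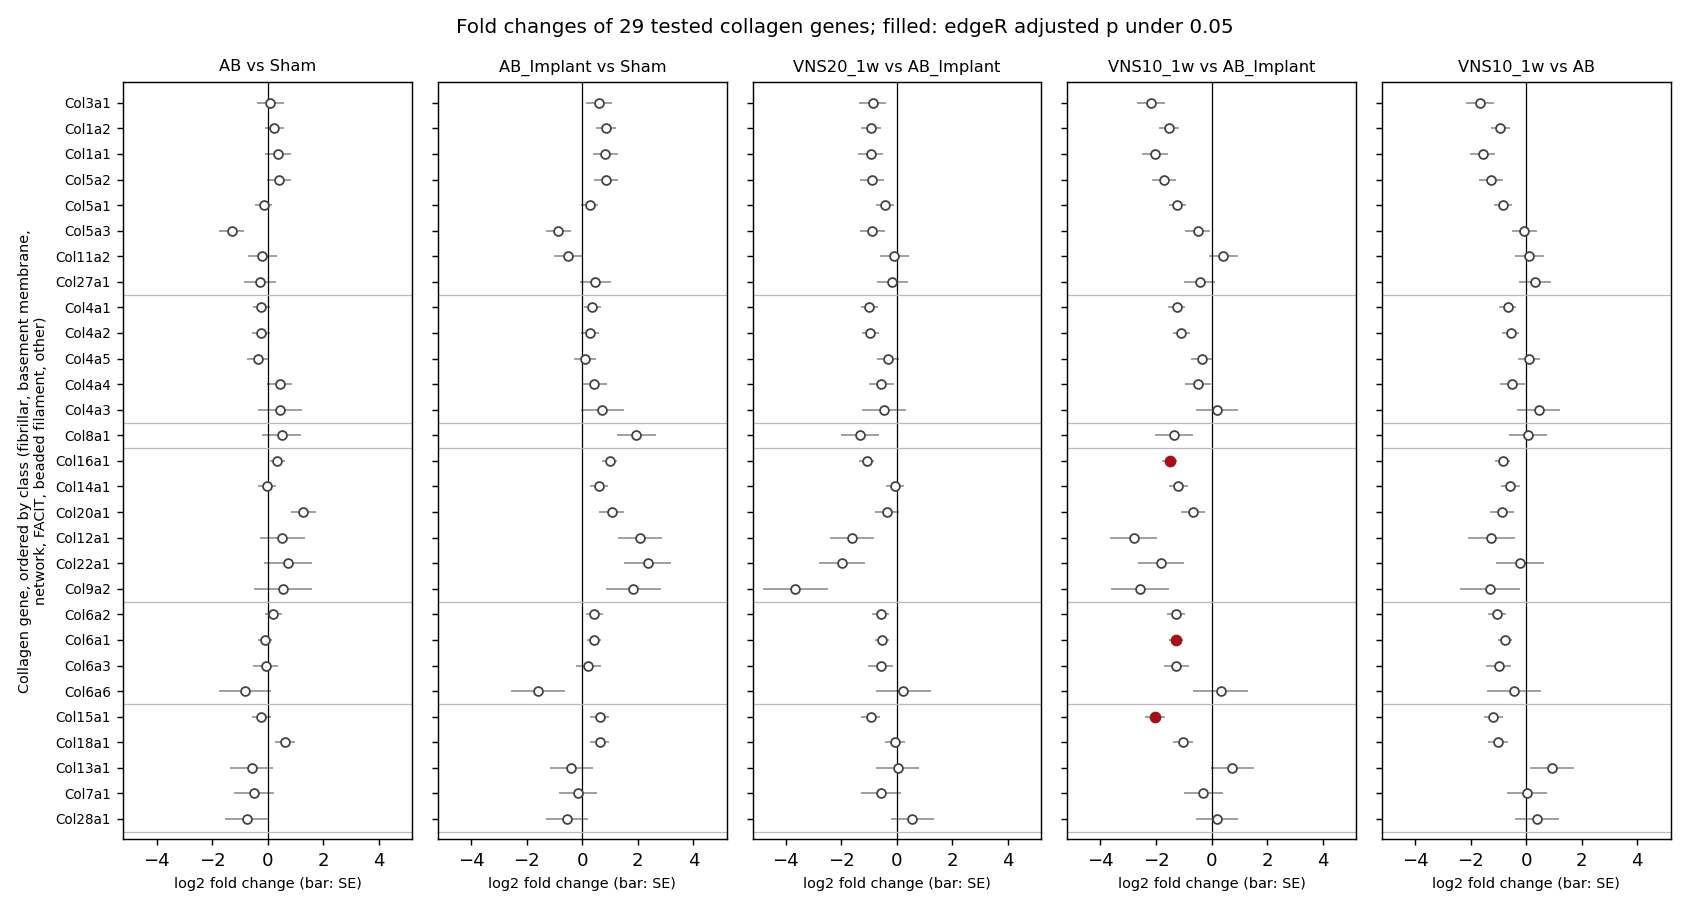
Log2 fold changes with SE (horizontal axis) of the 29 tested members (vertical axis, by class) in 5 comparisons, with filled points for an edgeR adjusted p under 0.05. Filled points occur in 1 panel, VNS10_1w against AB_Implant, for Col16a1, Col6a1 and Col15a1, and the open points of the abundant chains lie left of 0 there and in VNS10_1w against AB.

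The VNS10_1w libraries also lay low beside the groups other than AB_Implant. All 3 VNS10_1w libraries lay below all AB_Implant libraries in 13 members (6.15% of all tested genes), below all AB libraries in 12 (5.31%) and below all Sham libraries in 12 (5.21%). They lay below all VNS20_2w libraries in 13 (4.26%) and below all VNS20_4w libraries in 14 (17%). In 8 members they lay below all other 18 libraries, namely Col1a1, Col1a2, Col3a1, Col5a2, Col6a1, Col6a2, Col15a1 and Col16a1, and 27 of the 12100 tested genes (0.223%) did so. The comparison with all 18 libraries and those with Sham, VNS20_2w and VNS20_4w were chosen after the values were seen and carry no test. The 13 members below all AB_Implant libraries include Col22a1, which passed the expression filter only through AB_Implant.

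Against AB, VNS10_1w had 0 called members in edgeR (0.0496% of all tested genes passed), 12 at an unadjusted p under 0.05 (5.23% of all tested genes), all lower, and 0 in DESeq2 and in limma voom (0.207% and 0.124%). Col1a1 had the smallest p, at 29.1, 29.6 and 23.1 scaled CPM in VNS10_1w against 50.3, 120 and 72 in AB (-1.57, SE 0.46, adjusted p = 0.73). The groups did not overlap. Col15a1 was at -1.18 (SE 0.35, adjusted p = 0.73), and the member median was -0.67 beside 0.03 over all tested genes. Both comparisons use the same 3 VNS10_1w libraries.

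With 20 min a day from the same week the group means of Col1a1, Col1a2, Col3a1, Col4a1 and Col6a1 lay between those of AB_Implant and VNS10_1w. The means of Sham, AB and VNS20_2w lay between them too, and VNS20_1w was below Sham and AB in each of these genes. For Col1a1 the means were 57.6 in VNS20_1w, 62.5 in Sham, 80.8 in AB and 86 in VNS20_2w. In VNS20_1w against AB_Implant 26 members were lower and 3 higher, with a median of -0.58 beside 0.05 over all tested genes. In edgeR 0 of 29 passed (0.463% of all tested genes), 9 had an unadjusted p under 0.05 (8.77%), all lower, DESeq2 called 1 (1.57%) and limma voom 5 (17.1%). Leaving out AB_Implant replicate 2 gave a member median of -0.89. The VNS20_1w libraries lay wholly below AB_Implant in Col4a1, Col9a2 and Col20a1, 3 members beside 6.67% of all tested genes. Col16a1 had 8.02, 5.48 and 6.05 in VNS20_1w against 16.4, 6.96 and 18.2 (-1.09, SE 0.27, adjusted p = 0.0991) and passed without AB_Implant replicate 2, as did 0.835% of all tested genes. Col4a1 had 154, 145 and 129 against 394, 159 and 299, just outside the AB_Implant range (-0.99, SE 0.32, adjusted p = 0.257). Col9a2, a FACIT chain of cartilage, had 1 or 2 counts in each VNS20_1w library and 21, 2 and 76 in AB_Implant, and no fold is given for counts under the floor. It passed the expression filter only through AB_Implant libraries, so its place among these 3 members is partly set by the filter.

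With later starts the member medians against AB_Implant were -0.36 (week 2) and -0.30 (week 4), and -0.58 and -0.59 without AB_Implant replicate 2. In VNS20_2w against AB_Implant 0 of 29 members passed in edgeR (0.174% of all tested genes), 4 had an unadjusted p under 0.05 (5.1%), and DESeq2 called 0 (0.645%) and limma voom 3 (18.5%). Col16a1 had the smallest p there, at 7.11, 7.99 and 7.73 scaled CPM (-0.87, SE 0.27, adjusted p = 0.474), and it passed without AB_Implant replicate 2 (0.132% of all tested genes). In VNS20_4w against AB_Implant 0 passed in edgeR (0.322%), 2 had an unadjusted p under 0.05 (26.3%), and DESeq2 called 0 (3.81%) and limma voom 6 (41.1%). Leaving out AB_Implant replicate 2, edgeR called 0 members there and 0.207% of all tested genes. Col12a1 had the smallest p, at 1.09, 0.928 and 0.912 in VNS20_4w (-2.08, SE 0.82, adjusted p = 0.162). Col1a1 in VNS20_4w had 165, 119 and 74.1, overlapping AB_Implant, and the group mean of 119 ± 45.4 was the highest of the 7. Without VNS20_4w replicate 1 the mean was 96.7, below the 111 ± 67.8 of AB_Implant.

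Set against AB instead, none of the 3 groups with 20 min sessions had a member past the threshold or at an unadjusted p under 0.05. For VNS20_1w, VNS20_2w and VNS20_4w edgeR, DESeq2 and limma voom each called 0, beside edgeR calls of 0.289%, 0.107% and 0.149% of all tested genes and 4.3%, 3.97% and 5.19% at an unadjusted p under 0.05. The shares called by DESeq2 were 0.711%, 0.446% and 0.306%, and by limma voom 0.347%, 0.0413% and 0.0413%. The member medians were -0.30, 0.09 and 0.20, and those of VNS20_2w and VNS20_4w changed sign when libraries were scaled by their nuclear counts without TMM (-0.00194 and -0.03). That scaling also moved the median of all tested genes, from 0.06 to 0.0033 for VNS20_2w and from -0.02 to -0.22 for VNS20_4w. Relative to all tested genes the member median went from 0.02 to -0.005 in VNS20_2w and from 0.22 to 0.19 in VNS20_4w. Col9a2 had the smallest p in VNS20_1w and VNS20_2w, on 1 to 3 counts in each of their libraries. In VNS20_4w it was Col4a3, a minor type IV chain, at 0.0909, 0.253 and 0.415 scaled CPM against 0.48, 0.296 and 1.38 in AB, near the floor of detection (adjusted p = 0.753).

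For the 4 stimulated groups together, 27 members were lower and 2 higher than in the mean of AB and AB_Implant, with a median of -0.38 beside 0.02 over all tested genes. In edgeR 0 of 29 passed (0.438% of all tested genes), 10 had an unadjusted p under 0.05 (5% of all tested genes), all lower, and DESeq2 and limma voom each called 1, Col16a1 (0.686% and 3.64%). In edgeR its log2 fold change was the first by p (-0.67, SE 0.16, adjusted p = 0.113) and passed without AB_Implant replicate 2 (0.364% of all tested genes), when the member median was -0.53. Against Sham the same 12 libraries had 0 called members in edgeR (0.355%), 1 at an unadjusted p under 0.05 (8.83%), 0 in DESeq2 (1.1%) and 1, Col6a6, in limma voom (23.6%). The edgeR gene was Col5a3 at a log2 fold change of -1.07 (SE 0.32, adjusted p = 0.289). Its stimulated libraries ranged from 3.13 to 11.6 scaled CPM, with group means between 3.86 ± 0.377 (VNS20_1w) and 9.07 ± 2.67 (VNS20_2w), and overlapped with the 4.81 to 20.4 of Sham.

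The direct comparison of session lengths gave values without a call. In VNS20_1w against VNS10_1w 0 of 29 members passed in edgeR (0.0992% of all tested genes), 8 had an unadjusted p under 0.05 (4.54%), all higher in VNS20_1w, DESeq2 called 0 (0.463%) and limma voom 14 (16.5%). The VNS20_1w libraries lay wholly above VNS10_1w in 11 members (4.5% of all tested genes) and wholly below in 0 (3.99%). Col14a1 had 9.35, 14.3 and 7.36 scaled CPM with 20 min and 4.4, 6.32 and 3.51 with 10 min (1.12, SE 0.34, adjusted p = 0.496). Col15a1 had 29.7, 36.1 and 24.8 against 11.5, 18.4 and 12.4 (1.09, SE 0.35, adjusted p = 0.569).

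The ratio of the type I chains was lowest in VNS10_1w. A type I molecule takes more α1 than α2 chains, and the ratio of Col1a1 to Col1a2 counts, not divided by length, was 0.57, 0.59 and 0.527 in VNS10_1w. No other library was below 0.626, and the other group means ran from 0.749 ± 0.139 in AB_Implant to 0.995 ± 0.0997 in VNS20_4w. Over all 21 libraries the Col1a1 to Col1a2 ratio ran from 0.527 to 1.095, Col4a1 to Col4a2 from 1.05 to 1.46, Col3a1 to Col1a1 from 1.42 to 2.59 and Col6a1 to Col6a2 from 0.562 to 0.973. Wider in relative terms were Col5a1 to Col5a2 (0.444 to 1.07), Col6a3 to Col6a2 (0.157 to 0.438) and Col15a1 to Col18a1 (2.27 to 9.59), in which VNS10_1w overlapped other groups. The mean ratio of Col1a1 to Col4a1, fibril against basement membrane, was lowest in VNS10_1w at 0.237 ± 0.0629 and highest in VNS20_4w at 0.511 ± 0.0314. The libraries of VNS10_1w (0.201 to 0.31) overlapped those of Sham (0.234 to 0.33) and VNS20_2w (0.205 to 0.455). These ratios carry no test.

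Neighbouring collagen genes varied together across the 21 libraries. Col4a1 and Col4a2, whose genes overlap by 22 bases and share the promoter bases printed above, had Pearson r = 0.97 and Spearman rho = 0.93. For Col3a1 and Col5a2, which lie 24614 bases apart on chromosome 1, r was 0.92 and rho 0.91, and for Col6a1 and Col6a2, 85161 bases apart on chromosome 10, r was 0.91 and rho 0.88. All 6 values had adjusted permutation p = 1.33e-05, which rests on the least p that 100000 permutations allow. Leaving out the 2 most distant libraries gave r of 0.95, 0.89 and 0.89. The divergent pair Col4a3 and Col4a4, 71 bases apart, had r = 0.44 (adjusted permutation p = 0.0443) and rho = 0.40 (0.0718), and r = 0.33 without 2 libraries. The median r over all 406 pairs of tested members was 0.30, with a range from -0.602 to 0.973, and all pairs share the same libraries and depths. The highest r thus belonged to a pair other than the neighbours named here. The permutation p sets r against 0 and does not compare neighbours with other pairs. The counts hold no strand, so reads in the Col4a1 and Col4a2 overlap cannot be assigned to a strand.

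The genes most like Col1a1 among all tested genes other than collagens were mostly matrix genes. By Pearson r of log2 scaled CPM over 21 libraries they were Loxl1 (0.94) and Adamts2 (0.93), a crosslinking enzyme and the enzyme that trims procollagen I. Emilin1 (0.92), of elastic fibres, Rcn3 (0.89), of the endoplasmic reticulum, and Timp1 (0.88), a protease inhibitor, followed. Those most like Col4a1 were Sparc (0.92), a collagen-binding matrix protein, 1700025G04Rik (0.91), Fuca2 (0.90), Loxl2 (0.85) and Tnc (0.84). They were picked for their r, which therefore carries no test.

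Genes that make, assemble, bind and degrade collagen gave 1 call, Serpinh1. It encodes HSP47, the chaperone of procollagen in the endoplasmic reticulum. It had 122 to 187 scaled CPM in AB_Implant, 67.8 to 75.6 in VNS20_1w, 65.8 to 67.1 in VNS10_1w and 68 to 125 in Sham. It fell in VNS20_1w against AB_Implant (-1.05, SE 0.23, adjusted p = 0.0463) and in the average of the 4 stimulated groups relative to that of AB and AB_Implant (-0.63, SE 0.13, adjusted p = 0.0423). In VNS10_1w against AB_Implant its log2 fold change was -1.13 (SE 0.23, adjusted p = 0.0525). It was the 1 call among the 18 tested genes of folding, hydroxylation and export, beside 0.463% of all tested genes in VNS20_1w against AB_Implant and 0.438% in the pooled comparison. Both adjusted p-values lay just under the threshold. In VNS20_1w against AB_Implant it held without AB_Implant replicate 2 (adjusted p = 0.0431) and was lost when any other library of those groups was left out (0.0781 to 0.319), and over 16 alternatives it ran from 0.000674 to 0.319. In the pooled comparison it passed in 9 of 27 alternatives, between 0.00306 and 0.265, and was 0.057 without AB_Implant replicate 2. In VNS10_1w against AB_Implant it was 0.0346 without that library.

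The other lists held no call in the 14 comparisons with all libraries, in edgeR, where 0% to 0.463% of all tested genes passed. They covered 16 tested genes of propeptide cleavage, fibril assembly and crosslinking, 8 collagen receptors, 10 collagenases, gelatinases and inhibitors, and 16 genes of TGF beta signalling. In AB_Implant against Sham the first list had 14 genes higher and 2 lower (median 0.71) and the receptors 8 higher and 0 lower (median 0.33). The members of smallest p were Bgn, a small proteoglycan on fibrils (1.45, SE 0.38, adjusted p = 0.116), and Mrc2, an uptake receptor for collagen (0.79, SE 0.38, adjusted p = 0.515). For the remaining lists they were P4ha2, a prolyl hydroxylase (0.59, SE 0.17, adjusted p = 0.178), Timp2 (0.74, SE 0.20, adjusted p = 0.131) and Ltbp2 (3.78, SE 0.84, adjusted p = 0.0616). The first median was 0.94 without AB_Implant replicate 2, and that of the receptors 0.37. Among others, Bgn, Loxl3, Mmp2, Timp2, Ccn2, Ltbp2 and Tgfb2 then passed with higher levels in AB_Implant, beside 1.28% of all tested genes. The library left out was picked for its low collagen, so these passes carry that selection. With another single library left out, the adjusted p reached 0.568 for Bgn, 0.64 for Timp2 and 0.321 for Ltbp2.

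In VNS10_1w against AB_Implant the assembly and crosslinking list had 14 genes lower and 2 higher, with a median of -1.15 beside 0.04 over all tested genes (-1.39 without AB_Implant replicate 2). Its member Adamts2 had 5.71 to 6.13 scaled CPM in VNS10_1w and 8.17 to 23.9 in AB_Implant (-1.65, SE 0.36, adjusted p = 0.0999). In VNS20_1w against AB_Implant the members of smallest p were Lox, a crosslinking enzyme (adjusted p = 0.288), Itga11, a collagen receptor subunit (-1.34, SE 0.58), Mmp2, a gelatinase (-0.71, SE 0.23) and Ccn2, a TGF beta target (-2.70, SE 0.63, adjusted p = 0.0652). Lox was too low in VNS20_1w for a fold, at 0.0632 to 0.202 scaled CPM against 0.454 to 2.13. Ccn2 had 60.4 to 308 scaled CPM in AB_Implant and 12.3 to 32.4 in VNS20_1w, and these groups did not overlap. Without AB_Implant replicate 2 the list genes that passed, all lower, included Serpinh1, Adamts2, Bgn, Loxl3, Sparc, Mmp2 and Mmp14 in VNS10_1w (0.488% of all tested genes) and Serpinh1, Adamts2, Loxl3, Mmp2 and Ccn2 in VNS20_1w (0.835%). These passes carry the same selection. With another single library left out, the adjusted p reached 0.547 for Adamts2 in VNS10_1w, and 0.878 for Mmp2 and 0.434 for Ccn2 in VNS20_1w.

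Markers of the collagen-producing cells moved with part of the pattern. All 8 activated fibroblast markers (Postn, Cthrc1, Thbs4, Comp, Meox1, Fap, Ccn2 and Ltbp2) were in the table, and their sum was 526, 108 and 814 scaled CPM in AB_Implant replicates 1, 2 and 3. In the other groups it was 56 to 73 (Sham), 56.3 to 162 (AB), 58.4 to 142 (VNS20_1w), 90.2 to 160 (VNS20_2w), 81.9 to 288 (VNS20_4w) and 61.5 to 140 (VNS10_1w). AB_Implant replicate 2 was low in this sum as in collagen, and VNS10_1w was not below Sham in it. In edgeR 0 of the 8 passed in AB_Implant against Sham (7 higher, median 2.51) and in VNS10_1w against AB_Implant (7 lower, median -2.71). Of all tested genes 0.281% and 0.157% passed there, with medians of -0.01 and 0.04. Without AB_Implant replicate 2, 5 of the 8 passed in the first (median 2.93) and 3 in the second (median -3.19), beside 1.28% and 0.488% of all tested genes. The part of activated fibroblasts in the AB_Implant collagen levels was not tested.

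The general fibroblast markers overlapped between VNS10_1w and AB_Implant. The sum of 8 markers (Pdgfra, Tcf21, Dpt, Gsn, Pi16, Mfap5, Scara5 and Lamc3, the last under 1 CPM everywhere) was 742 to 1053 scaled CPM in VNS10_1w and 895 to 1005 in AB_Implant, and 629 to 1402 over the other groups. Of the 7 tested ones 0 passed in VNS10_1w against AB_Implant, beside 0.157% of all tested genes. In AB_Implant against Sham 1 of 7, Pi16, rose, beside 0.281% of all tested genes (edgeR adjusted p = 0.0458, and 0.000396 to 0.247 over 16 alternatives). The 7 cardiomyocyte markers, which define the labelled tissue, summed to 35596 to 72896 in all libraries. In the comparisons with AB_Implant that follow they stood opposite to collagen in direction, with 0 called in any comparison given here. In AB_Implant 6 of 7 were lower than in Sham (median -0.33) and than in AB (-0.37), and in VNS10_1w 6 of 7 were higher than in AB_Implant (0.40). These medians were -0.42, -0.51 and 0.52 without AB_Implant replicate 2. The sum was 44598, 51609 and 35596 in AB_Implant replicates 1, 2 and 3, highest in the library that was lowest in collagen, and 40150 to 61533 in VNS10_1w. Among the stimulated groups the means of this sum had the same order as those of collagen. They ran from 51180 ± 10707 in VNS10_1w to 62366 ± 2902 in VNS20_4w, where the collagen means were 491 and 1146. Endothelial markers summed to 342 to 380 in VNS10_1w and 309 to 383 in AB_Implant, and pericyte and smooth muscle markers to 213 to 281 and 187 to 201. The 7 macrophage markers were low in VNS10_1w together with collagen. They summed to 121, 85.5 and 128 in VNS10_1w, below all libraries of VNS20_1w (151 to 214), VNS20_2w (140 to 246) and VNS20_4w (177 to 215), and overlapped AB_Implant (123 to 191), AB (117 to 218) and Sham (79 to 149). Of the 7, 5 were lower than in AB_Implant (median -0.34 with or without AB_Implant replicate 2) and 5 lower than in AB (median -0.42), and 0 passed in either. Each of the 4 adipocyte markers was under 1 CPM in every library, with Lep at 0. Of the 5 cartilage and valve markers Acan, Matn1 and Matn3 were also under 1 CPM throughout, and Chad, a cartilage matrix protein and the 1 tested marker of the list, was not called. Chad reached 10.9 in VNS20_1w replicate 1, 9.66 in AB replicate 2 and 8.57 in VNS20_2w replicate 2, and the list summed to 0.506 to 11.3 over all libraries. The 5 hepatocyte markers summed to 16.9 to 106 in the stimulated libraries and 0.378 to 2.96 in the others, and Alb and Cyp3a11 rose in each stimulated group against AB and against AB_Implant, a split that VNS10_1w shares with the other stimulated groups. The part of these cell types in the collagen levels was not tested.

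The dependence of counts on gene length, relative to the average library, was related to the levels of some members. The 29 tested members have a median transcript of 6119 bases and 56.1% GC, beside 3404 bases and 49.9% over all tested genes. Over the 21 libraries the level of 3 of 29 members, Col4a5 (r = 0.81, rho = 0.84), Col4a3 (0.81, 0.81) and Col27a1 (0.72, 0.74), rose with the length slope of the library. Their adjusted permutation p-values for r, over 29 relations, were 0.00058, 0.00029 and 0.00174, and r without the 2 farthest libraries was 0.80, 0.81 and 0.69. The slope was fitted to the same counts, members included, so long genes tend to follow it by construction. These p-values are therefore no independent test, and the share of all tested genes with such a relation is not given. Col4a5, Col4a3 and Col27a1 also had their lowest group mean in VNS20_4w, whose libraries had slopes of -0.30 to -0.25. For low levels of these genes in VNS20_4w, group and slope cannot be told apart. Col1a1 had r = -0.42 and rho = -0.48 (adjusted permutation p = 0.329 and 0.191). Members whose relation missed the threshold are not thereby shown to be free of it. With the length slope as a covariate the log2 fold changes in VNS10_1w against AB_Implant were -2.03 for Col15a1, -1.52 for Col16a1, -1.29 for Col6a1 and -2.04 for Col1a1. The number of members that passed went from 3 to 12, and the share of all tested genes from 0.157% to 1.42%.

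**Figure D5:**
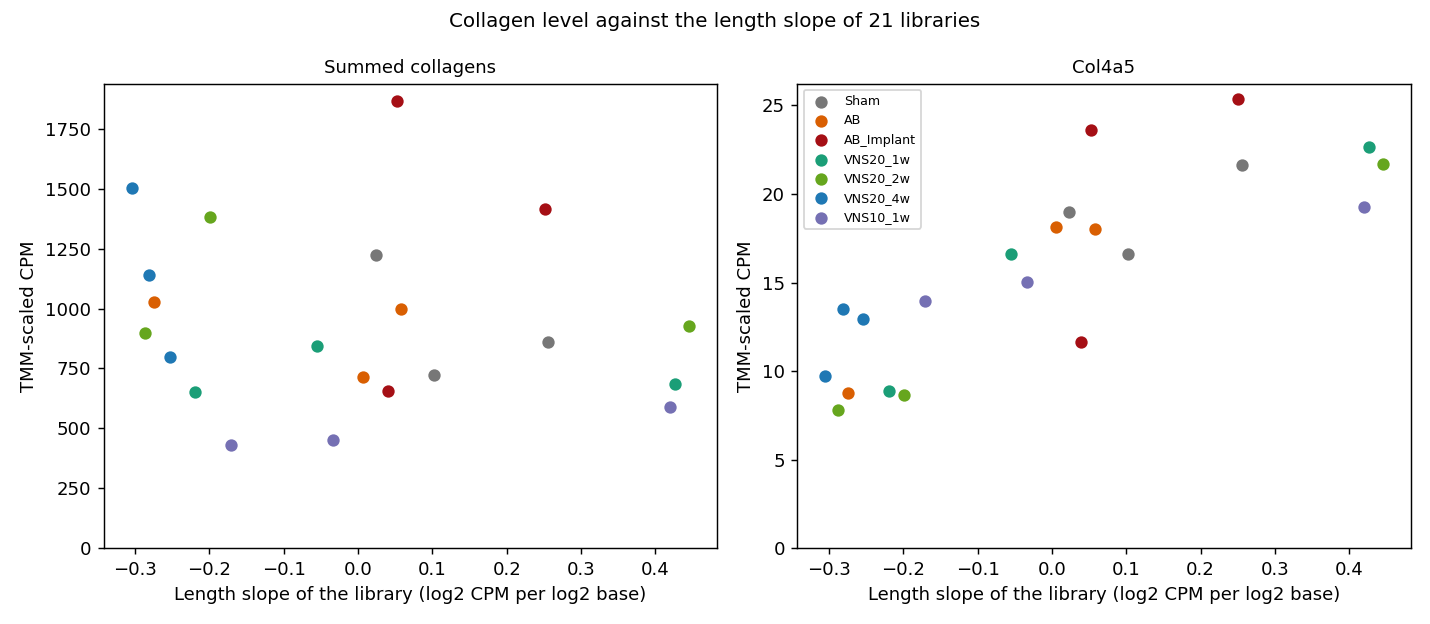
Scaled CPM (vertical axis) of all collagens summed (left) and of Col4a5 (right) against the length slope of each library in log2 CPM per log2 base (horizontal axis), coloured by group. Col4a5 rises with the slope, and the 3 VNS10_1w points are the lowest collagen sums at slopes of -0.17, -0.03 and 0.42.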

How the data were processed

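Polyadenylated left ventricular RNA was sequenced as paired reads, per the labels' protocols. The submitters' processing notes list the build GRCm38 and the tools HISAT2 2.1.0, edgeR 3.32.1, cutadapt 1.11, featureCounts 1.6.0, FastQC 0.11.9 and R 4.0.3. The authors deposited 1 table of whole-number counts for 22136 genes and 21 libraries. Its name speaks of normalized counts, but the deposited values were treated as raw counts per gene, since 100% were whole, totals differed, and low counts showed none of the gaps that scaling and rounding leave.

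Symbols were found for 22041 genes. Gene models came from GENCODE M21, promoters from RefSeq (GRCm38.p6). Counts were scaled by TMM and tested with edgeR 4.0.16 (R 4.3.3), by quasi-likelihood with 7 groups in 1 model, over the 12100 genes with at least 1 CPM in at least 3 libraries. A call is an adjusted p (Benjamini-Hochberg, over all tested genes) under 0.05. Scaled CPM are counts relative to the TMM-adjusted library size. Correlations used log2(scaled CPM + 0.5). DESeq2 1.42.0 and limma 3.58.1 (voom with sample weights) were alternatives. The model was checked on simulated counts.

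The members and all lists were chosen with earlier results of these data known. Named were the main cardiac chains, every called collagen, the smallest p of each comparison, and called or smallest-p members of 5 pathway lists. Nothing labels the replicates beyond biological, so p-values measure the spread between these libraries. One gene of the pathway lists is not reported here.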

Additional observations from a re-analysis of the deposited data

How the results depend on the processing

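Beside the edgeR fit described above, 10 other settings were run for the collagen calls of 15 comparisons, and each replicate was left out in turn. Collagen genes called in VNS10_1w against AB_Implant numbered 3 in the reported fit, with no filter, with DESeq2 size factors and without the 3 libraries of the steepest length slope. They numbered 10 with DESeq2, 19 with limma voom, 12 with the length slope as a covariate, 1 with nuclear library sizes without TMM, and 0 with a mean of at least 5 CPM and when those 2 groups alone were fitted. With the replicate number as a block they numbered 0. The numbers do not pair the samples: deviations of same-numbered libraries had a mean correlation of -0.065, and 18 of 63 pairs were over 0.1. The block changed no other collagen count. In the 7-group F test the count was 0 in the reported fit, 8 with DESeq2, 19 with limma voom, 3 with the slope covariate and 4 without the 3 steepest libraries. In AB_Implant against Sham it was 1 with DESeq2, 1 with limma voom and 2 with the slope covariate (Col8a1 and Col16a1). In VNS20_1w against AB_Implant it was 1 with DESeq2, 5 with limma voom and 1 with the slope covariate. In VNS20_2w against AB_Implant it was 3 with limma voom and 1 without the steepest libraries, and in VNS20_4w against AB_Implant 6 with limma voom and 3 when those 2 groups alone were fitted (Col4a5, Col12a1 and Col27a1). In the stimulated groups against AB and AB_Implant it was 1 with DESeq2, 1 with limma voom, 1 with the slope covariate and 3 without the steepest libraries. Against Sham it was 1 with limma voom and 3 without the steepest libraries. In VNS20_1w against VNS10_1w it was 14 with limma voom and 1 with the slope covariate (Col14a1). Leaving out single libraries gave 0 to 10 calls in VNS10_1w against AB_Implant, 0 to 3 in the F test, and 0 to 1 in AB_Implant against Sham, VNS20_1w and VNS20_2w against AB_Implant and the stimulated groups against AB and AB_Implant. The highest value each time was without AB_Implant replicate 2. The fold changes of the named collagen genes, recomputed in the comparisons that name them, kept their sign under all these settings. The same settings for 11 named pathway and marker genes, and the medians and sums without AB_Implant replicate 2, were added after seeing the data. These genes kept their sign too, and the block ended the calls of Serpinh1 (adjusted p = 0.103 in both comparisons) and Pi16 (0.0857). The causes of these differences were not tested. Scaling by nuclear counts moved the median of all tested genes by over 0.1 on the log2 scale in 6 comparisons, by -0.29 in VNS20_4w against AB_Implant and by -0.05 in VNS10_1w against AB_Implant. Summed collagen spanned 657 to 1866.5 scaled CPM within AB_Implant, and each group had 3 libraries, which limits how small a difference could be called.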
